A study of Mus musculus with 6 samples.

Results

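Hedgehog signalling was followed here through 7 genes that encode its receptors and its nuclear effectors: Ptch1, Hhip, Smo, Sufu, Gli1, Gli2 and Gli3. They were taken by symbol from a table of 55291 genes, and all 7 symbols were found and passed the filter on low counts. The libraries came from marrow flushed from femurs of mice aged 6 to 8 weeks, 3 labelled wild type (WT 1, 2 and 3) and 3 labelled P2rx7 knockout (knockouts A, B and C), with 1 library per mouse. P2rx7 encodes a cation channel opened by extracellular ATP, and the series title ties it to bone ageing and to the mitochondria of mesenchymal stromal cells. Values are given in the order 1, 2, 3 for wild types and A, B, C for knockouts. The labels give no sex, strain, construction of the knockout allele or littermate relation, and they describe no treatment.

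Hedgehog proteins are secreted signals that bind Patched 1, the product of Ptch1. Without a ligand, Patched 1 keeps the membrane protein Smoothened, encoded by Smo, inactive, and Sufu holds the Gli transcription factors in the cytoplasm. Ligand binding frees Smoothened, which acts at the primary cilium to release the Gli factors. Gli2 is the main activator, Gli3 is in large part processed into a repressor, and Gli1 is an activator that is itself switched on by the pathway. Ptch1 and Hhip, a membrane protein that binds the ligands without signalling, are also pathway targets, so they act as negative feedback. In bone, Indian hedgehog from cartilage cells directs growth plate chondrocytes and the first osteoblasts, and Gli1 marks mesenchymal progenitor cells near the growth plate and around vessels.

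Gli1, Gli2 and Gli3 share a zinc finger domain that binds DNA, so the most alike stretches of their coding sequences are shown first, because they bear on how far reads of these 3 genes can be told apart. Capitals mark the bases that differ between the paired genes, and each line is the transcript strand, 5′ to 3′, from GENCODE M21 (GRCm38), over the 75 coding bases of highest identity. The first pair is Gli1 against Gli2, at 71 of 75 identical bases. The Gli1 stretch spans the junction of exon 9 (minus strand, chr10:127335963-127336035) and exon 10 (chr10:127334362-127334363), and the Gli2 stretch that of exon 10 (minus strand, chr1:118845917-118845989) and exon 11 (chr1:118844514-118844515).
Gli1: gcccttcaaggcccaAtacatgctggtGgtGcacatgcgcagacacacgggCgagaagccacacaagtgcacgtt
Gli2: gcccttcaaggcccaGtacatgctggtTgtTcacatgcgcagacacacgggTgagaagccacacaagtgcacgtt
The second pair is Gli2 against Gli3, at 65 of 75. The Gli2 stretch lies in exon 9 (chr1:118848383-118848406) and exon 10 (chr1:118846016-118846066), and the Gli3 stretch in exon 10 (plus strand, chr13:15662507-15662530) and exon 11 (chr13:15713499-15713549).
Gli2: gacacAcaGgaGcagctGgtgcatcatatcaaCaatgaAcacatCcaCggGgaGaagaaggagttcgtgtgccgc
Gli3: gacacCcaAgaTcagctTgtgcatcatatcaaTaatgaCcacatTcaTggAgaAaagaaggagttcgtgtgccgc

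Over the whole coding sequences the longest run of identical bases was 23 for Gli1 and Gli2, 25 for Gli2 and Gli3 and 14 for Gli1 and Gli3. A window of 75 coding bases, aligned without gaps, thus held at least 4 bases that set each Gli gene apart from the others. Read length and the handling of reads that match several places were not given in the sources used here. Some exons were shared with other genes. Gli1 (chromosome 10, 127329882 to 127341974, minus strand) shared 62 exon bases with Arhgap9 on the other strand, which had 870 to 948 counts per library against at least 24 of Gli1, and 265 with Gm47200, which had 0. The use of strand in counting is not stated, so reads in those bases cannot be told apart and the value of Gli1 is less certain. Gli3 shared 188 exon bases with Gm6556 (7 to 20 counts), and Hhip shared 175 with Gm27820, which had 0 counts.

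The labelled knockout was checked first. P2rx7 (chromosome 5, 122643911 to 122691432) was at 10.1, 10.2 and 10.5 FPKM (fragments per kilobase of exons, scaled to library size) in the wild types. The knockouts stood at 6.63, 6.37 and 6.24 FPKM. All knockouts lay below all wild types, with transcripts reduced to a ratio of 0.628 and not lost (adjusted p = 0.0109, edgeR's quasi-likelihood test with Benjamini-Hochberg adjustment over all tested genes). This call was lost without knockout B (adjusted p = 0.0763, edgeR), without knockout C (0.0973), in the 4 libraries with counts of growth hormone (0.516) and with its presence in the model (0.112), while the log2 fold change stayed between -0.69 and -0.60 in all 16 alternatives. A count summed over all exons would miss the loss of single exons. Totals were 18716704 to 23575652 counts per library. Growth hormone transcripts (Gh), foreign to the femur, had 54, 82 and 75 counts in the wild types and 23 in knockout A, and 0 in the other 2 knockouts, so the presence of Gh splits the libraries along lines close to the genotypes. Of the blood cell markers expected in marrow, the T cell gene Cd3e had 0 counts in every library, Hba-a1 and Hbb-bt had at most 3, while the macrophage genes Csf1r and Adgre1 were at 207 to 259 and 170 to 199 FPKM. The collagen gene Col1a1 was at 1165 to 1620 FPKM and the actin gene Acta2 of smooth muscle and myofibroblasts at 1243 to 2335 FPKM. Cd3e, Hba-a1 and Hbb-bt were therefore near 0, and Csf1r, Adgre1, Col1a1 and Acta2 were abundant. Other markers of the same lists were low. Of 14 osteoblast markers 9 passed the filter on low counts, and Sost and Mepe had at most 3 counts in any library. Of 23 blood cell markers 13 passed it.

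The 7 genes formed a steep order of levels that was the same in both genotypes except at 1 place. Smo was highest at 14.9 ± 1.08 FPKM (SD over 6 libraries), followed by Sufu at 6.31 ± 0.359, Gli2 at 2.83 ± 0.341, Gli3 at 2.66 ± 0.337, Ptch1 at 1.98 ± 0.124, Gli1 at 0.2997 ± 0.0512 and Hhip at 0.0740 ± 0.0298 FPKM. The ranges over 6 libraries did not overlap between Smo and Sufu, Sufu and Gli2, Ptch1 and Gli1, or Gli1 and Hhip. The ranges of Gli2 and Gli3 overlapped, with Gli2 higher in 4 of 6 libraries. Gli3 was above Ptch1 in 6 of 6 libraries although the ranges of the 2 genes over all libraries overlapped. The signal transducer and the Gli inhibitor thus stood above the transcription factors. The 2 lowest genes, Gli1 and Hhip, are targets of the pathway, and so is Ptch1, at 1.98 FPKM. Smo lay above 78.2% of the 15478 tested genes in mean FPKM, Gli2 above 38.3%, Ptch1 above 31.5%, Gli1 above 6.99% and Hhip above 0.491%. RNA from whole marrow does not separate a small number of cells with much of a transcript from many cells with little of it.

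**Figure D1:**
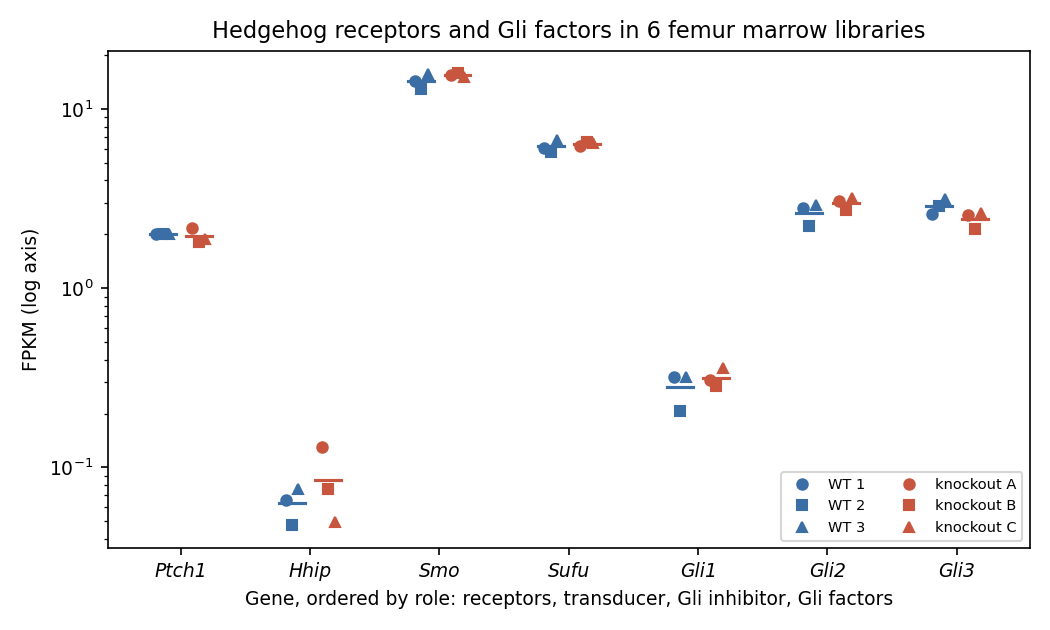
FPKM (log axis) of the 7 genes in each of 3 wild-type and 3 P2rx7 knockout libraries, with horizontal lines at the mean of each genotype. Smo and Sufu are highest, Gli1 and Hhip lowest, and the points of the genotypes overlap for every gene.

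For none of the 7 genes was a difference between genotypes detected beyond the spread of the mice. By edgeR's quasi-likelihood test, 0 of 7 had an unadjusted p below 0.05, against 16.6% of all tested genes. After adjustment 0 of 7 passed 0.05, where 0.103% of all tested genes passed. DESeq2 and limma on log2 FPKM also called 0. The values of knockouts and wild types overlapped in 7 of 7 genes, while they did not overlap in 21.9% of all tested genes. The median log2 fold change was 0.12 over the 7 genes and 0.00 over all tested genes.

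Among the receptors, Ptch1 was the most even gene. Its wild-type levels were 2.01, 2.02 and 1.999 FPKM, against 2.16, 1.80 and 1.88 FPKM among the knockouts. Knockout A lay above all wild types and the other 2 knockouts below them. The log2 fold change was -0.03 ± 0.07 (SE, adjusted p = 0.860, edgeR), with a 95% interval from a ratio of 0.869 to 1.10. Ptch1 (chromosome 13, 63508328 to 63573598, minus strand) had 486 to 680 counts per library. The sign of this small value turned positive without knockout B, at 0.015, and in both fits that took account of Gh, at 0.10.

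Hhip, the decoy receptor (chromosome 8, 79965851 to 80058006, minus strand), had 12, 10 and 16 counts in the wild types. Its knockout counts were 26, 13 and 9. The highest and the lowest raw count were both in knockouts, but scaled to library size WT 2 was lowest, at 0.0476 FPKM against 0.0494 in knockout C. By edgeR the log2 fold change was 0.44 ± 0.39 (SE), with a 95% interval of -0.46 to 1.34 and an adjusted p of 0.609. It was -0.0086 without knockout A and 1.02 with the presence of Gh in the model, where knockout A is the only knockout with Gh counts (adjusted p = 0.837, edgeR). Pooled over mice, 48 counts in knockouts against 38 in wild types gave a ratio of 1.39 per total counts (exact 95% binomial interval 0.890 to 2.19, counting error only). Both intervals included no change, and the smallest change of Hhip that could be detected at this depth was not computed.

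Smo, which encodes the transducer (chromosome 6, 29735503 to 29761365, plus strand), was at 14.3, 12.98 and 15.7 FPKM in the wild types, against 15.4, 15.8 and 15.1 FPKM among the knockouts. The knockouts lay close together near the upper end of the wild types, and WT 2 was lowest. The log2 fold change was 0.12 ± 0.07 (SE, adjusted p = 0.444, edgeR; 95% interval of the ratio 0.968 to 1.21), and it was 0.05 without WT 2 and 0.19 without WT 3. Sufu, the Gli inhibitor (chromosome 19, 46396896 to 46488804, plus strand), was at 6.08, 5.75 and 6.75 FPKM in the wild types. The knockouts had 6.26, 6.52 and 6.51 FPKM, all within the range of the wild types. Its log2 fold change was 0.06 ± 0.07 (SE, adjusted p = 0.697, edgeR; 95% interval of the ratio 0.935 to 1.17), and 0.0052 without WT 2 or 0.13 without WT 3.

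The 3 Gli genes differed in the direction of their small differences. Gli1 had 32, 24 and 37 counts in the wild types, or 0.319, 0.208 and 0.320 FPKM. Its knockout counts of 34, 27 and 36 correspond to 0.307, 0.285 and 0.359 FPKM. WT 2 was lowest and knockout C highest, with the genotypes mixed between them. In edgeR the knockout-to-wild-type ratio had a 95% interval of 0.777 to 1.65 and an adjusted p of 0.748. Its log2 value was 0.18 ± 0.24 (SE), and -0.0089 without WT 2.

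Gli2 (chromosome 1, 118834132 to 119053619, minus strand) was at 2.81, 2.23 and 2.91 FPKM in the wild types, against 3.09, 2.73 and 3.19 FPKM among the knockouts. Only knockout B lay within the range of the wild types, between WT 2 and WT 1. The log2 fold change was 0.19 ± 0.11 (SE, adjusted p = 0.442, edgeR; 95% interval of the ratio 0.9501 to 1.37) and 0.07 without WT 2.

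Gli3 (chromosome 13, 15463235 to 15730026, plus strand) was at 2.60, 2.89 and 3.15 FPKM in the wild types, against 2.58, 2.14 and 2.62 FPKM among the knockouts. Knockout C overlapped WT 1, and the other 2 knockouts lay below all wild types. Its log2 fold change of -0.23 ± 0.10 (SE) came nearest to the threshold of the 7 genes and did not pass (unadjusted p = 0.0502, adjusted p = 0.302, edgeR; 95% interval of the log2 fold change -0.45 to 0.00). Without knockout B it was -0.14.

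**Figure D2:**
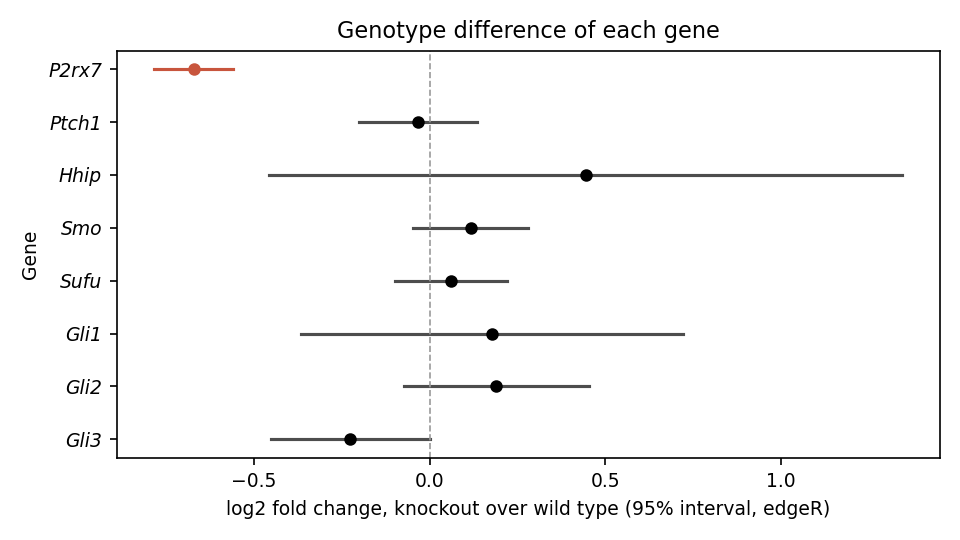
Log2 fold change of knockout over wild type with its 95% interval from edgeR, for P2rx7 and the 7 Hedgehog genes. Only the interval of P2rx7 lies wholly to 1 side of 0; that of Hhip, with 9 to 26 counts per library, runs from -0.46 to 1.34.

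The balance of Gli2 to Gli3 was compared within each library, a ratio that does not depend on how libraries are scaled and that was chosen after its values were seen. The ratio of Gli2 FPKM to Gli3 FPKM was 1.08, 0.771 and 0.926 in the wild types, against 1.20, 1.27 and 1.22 among the knockouts. All knockouts lay above all wild types, and Gli2 was the more abundant of the pair in every knockout and in WT 1. The exact 95% binomial intervals, which cover counting error only, were 0.944 to 1.24 in WT 1 and 1.06 to 1.36 in knockout A, so the nearest libraries of the genotypes were not separated by counting precision. The mean was 1.23 ± 0.0401 in knockouts and 0.926 ± 0.155 in wild types (SD, n = 3; two-sided exact permutation test, p = 0.1, the smallest that 3 against 3 allows). Among the 21 pairs of the 7 genes, 3 ratios (14.3%) did not overlap between genotypes. The share for single tested genes in log2 CPM, a different measure, was 21.9%. No share was computed for ratios of gene pairs over the whole table. The pairs share genes, and Gli3 is in all 3 ratios, so the count is no result about these pairs. Besides Gli2 to Gli3 the 3 ratios were Gli3 to Smo, at 0.159 ± 0.0209 against 0.202 ± 0.0204, and Gli3 to Sufu, at 0.381 ± 0.0459 against 0.465 ± 0.0378. For all 3, the exact permutation p adjusted over the 21 pairs was 0.6. The log2 difference of 0.42 was 0.30 without WT 2 and 0.54 without WT 1. Knockout A, at 1.20, is the only knockout with Gh counts, and the part of the Gh split in this ratio was not tested.

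In shares of the summed FPKM of the Gli genes, Gli2 made up 52.1 ± 0.721% in knockouts and 45.5 ± 3.604% in wild types, Gli3 42.4 ± 0.818% and 49.7 ± 4.45%, and Gli1 5.49 ± 0.338% and 4.83 ± 0.853% (SD, n = 3). The sum itself was 5.77 ± 0.541 FPKM among knockouts against 5.81 ± 0.535 FPKM (two-sided exact permutation test, p = 1). The mean sums thus lay far within 1 SD of each other. The shares restate the ratio chosen after its values were seen, and their exact permutation p was 0.1 for Gli2 and Gli3, the smallest possible, and 0.3 for Gli1.

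**Figure D3:**
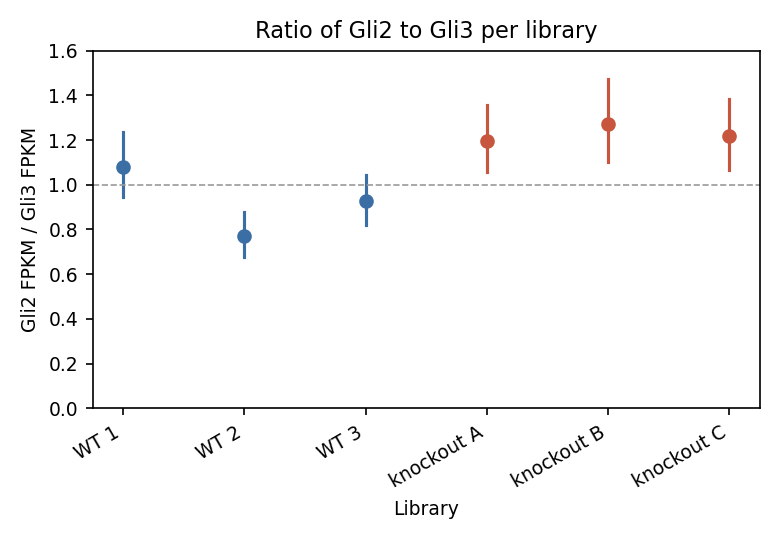
Ratio of Gli2 FPKM to Gli3 FPKM in each library with its exact 95% binomial interval, which covers counting error only; the dashed line marks equal levels. The knockouts sit between 1.20 and 1.27 and the wild types between 0.771 and 1.08.

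Upstream of the receptors, transcripts of the ligands were close to absent. Shh had 1 count in each wild type and in knockout A and 0 in the other knockouts. Ihh, the ligand of growth plate cartilage, had 2 counts in every wild type, and 6, 3 and 1 among the knockouts. Dhh had 1 to 4 counts per library. None of the 3 passed the filter on low counts, and a count of 0 allows up to 3 counts, or 0.160 CPM (counts scaled to library size) in knockout B and 0.153 in knockout C. Of the 9 genes for ligands and for their lipidation and release, 4 were tested and 0 passed (edgeR; 2 at an unadjusted p below 0.05). Disp1, which releases the lipid-bearing ligand from the cells that make it, was at 8.68 ± 0.330 FPKM among knockouts against 10.1 ± 0.765 FPKM (SD, n = 3), with a log2 fold change of -0.21 (adjusted p = 0.200, edgeR). Scube3, a secreted glycoprotein related to the Hedgehog carrier Scube2, was at 1.38 ± 0.0616 against 1.08 ± 0.234 FPKM (adjusted p = 0.283). Every member lay above all 3 ligands in FPKM in every library, including Hhip, the lowest member, at 0.0476 to 0.129 FPKM.

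At the cell surface, 3 of the co-receptors that present the ligand to Patched, Gas1, Boc and Cdon, were more abundant than Ptch1, while Lrp2 and Gpc3, also in the list, were at 0.0410 to 0.137 and 0.0504 to 0.196 FPKM. Gas1 was at 26.1 ± 7.19 FPKM among knockouts against 17.6 ± 7.598 FPKM (SD, n = 3; adjusted p = 0.394, edgeR). Boc was at 6.23 ± 0.5002 against 5.41 ± 0.748 FPKM and Cdon at 3.15 ± 0.240 against 3.11 ± 0.135 FPKM. Of the 6 genes in this list, 5 were tested and 0 passed (edgeR; 1, not named here, at an unadjusted p below 0.05). For Gas1, Boc, Cdon and Lrp2 the unadjusted p was above 0.05 (edgeR). Gpc3, with 3 to 10 counts per library, was not tested.

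**Figure D4:**
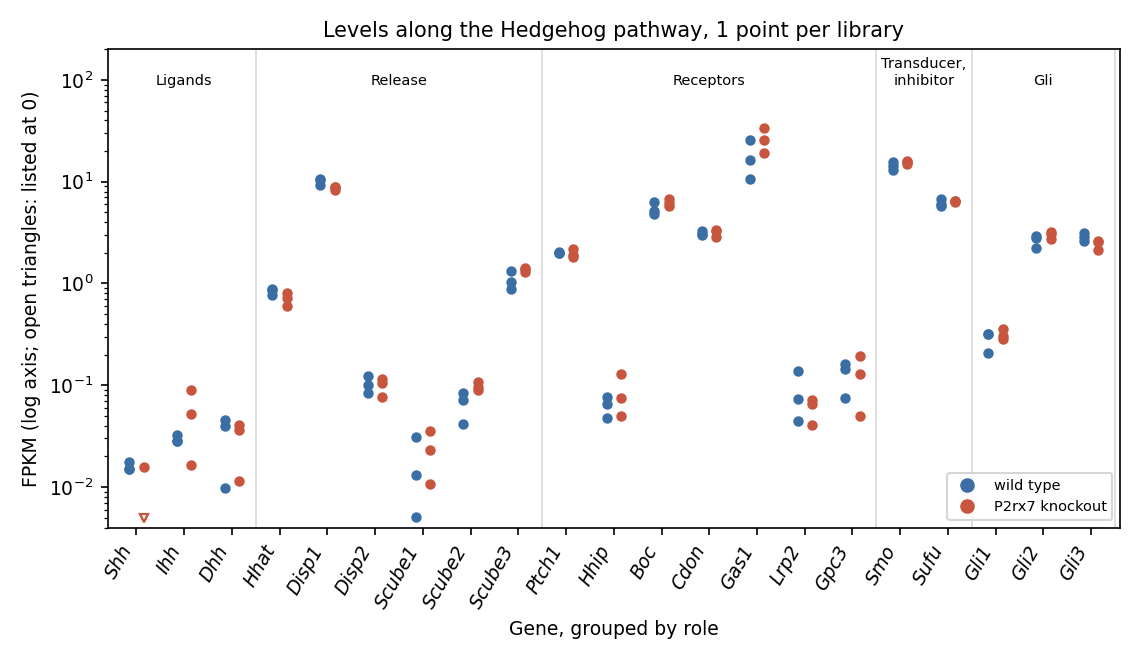
FPKM (log axis) of Hedgehog ligands, genes of ligand release, receptors and co-receptors, Smo, Sufu and the Gli genes, 1 point per library; the open triangle stands for Shh in knockouts B and C, which is listed at 0. The ligands lie below 0.1 FPKM, while Gas1, Smo, Disp1 and Sufu lie above 5.

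Inside the cell, the regulators of Smoothened and the Gli factors showed no detected difference between genotypes. All 22 genes of the list were tested and 0 passed (edgeR; 1 at an unadjusted p below 0.05), with log2 fold changes from -0.16 to 0.18 and a median of -0.02. Prkar1a, the regulatory subunit of protein kinase A, the kinase that primes Gli3 for processing, was at 107 ± 1.94 FPKM among knockouts against 113 ± 1.001 FPKM (SD, n = 3; adjusted p = 0.482, edgeR). Arrb2, an arrestin that binds Smoothened, was at 104 ± 6.20 against 106 ± 4.25 FPKM (adjusted p = 0.911). Grk2, a kinase of Smoothened, was at 58.5 ± 3.47 against 58.5 ± 0.845 FPKM (adjusted p = 0.957). Spop, the adaptor that brings Gli2 and Gli3 to a ubiquitin ligase, was at 47.5 ± 2.57 against 49.6 ± 4.37 FPKM (adjusted p = 0.743). The 42 genes of intraflagellar transport and the ciliary gate were likewise all tested with 0 past the threshold (edgeR; 2 at an unadjusted p below 0.05), log2 fold changes from -0.18 to 0.27 and a median of 0.01. Ift20 was at 20.7 ± 0.878 against 21.1 ± 0.221 FPKM and Kif3a, a motor subunit of ciliary transport, at 15.9 ± 1.08 against 17.1 ± 0.855 FPKM.

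Genes reported as Gli targets had differences of both signs, and none passed. Of 21 listed genes 19 were tested and 0 passed (edgeR), with 5 higher and 5 lower in knockouts at an unadjusted p below 0.05 and a median log2 fold change of 0.23. The cell cycle genes Ccnd1 and Ccnd2 were at 58.6 ± 9.19 and 44.4 ± 2.08 FPKM among knockouts against 78.1 ± 5.32 and 60.4 ± 5.27 FPKM (SD, n = 3), with log2 fold changes of -0.41 and -0.44 (adjusted p = 0.161 and 0.0994, edgeR). Bmp4, a bone morphogenetic protein ligand, was at 66.3 ± 9.22 against 47.7 ± 12.4 FPKM (adjusted p = 0.264), and Cyp1b1, a cytochrome P450, at 79.3 ± 7.39 against 93.7 ± 7.18 FPKM (adjusted p = 0.243). Many of these genes answer to other pathways as well. Over all 5 lists, with members left out, 15 of 91 tested genes had an unadjusted p below 0.05 (edgeR), against 16.6% of all tested genes. These were concentrated in the target list, with 10 of its 19 tested genes, a list chosen with earlier results of these data known. After adjustment 0 of the 91 passed in edgeR and limma, while DESeq2 called 4. Those 4, named after their values were seen, are all of the target list: Ccnd1, Ccnd2, Snai1, a transcription factor of mesenchymal transitions, and Hsd11b2, which inactivates glucocorticoids. Hsd11b2 had a log2 fold change of 1.88 in edgeR (adjusted p = 0.117), and Snai1 had -0.42 (adjusted p = 0.163).

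The level of stromal markers also varied between the libraries. The 16 marrow stromal markers, all tested, had a median log2 fold change of 0.26 with 14 positive and 2 negative values, and 0 passed (edgeR; 8 at an unadjusted p below 0.05). Their summed level was 909 to 1010 FPKM among knockouts against 437 to 751. WT 2 held the lowest level of the chemokine gene Cxcl12, at 164 FPKM, where the other libraries had 328 to 594. WT 2 was also the library of lowest FPKM for Smo, Sufu, Gli1, Gli2 and Hhip. The part of stromal content in the values of the 7 genes was not tested. Set against the mean log2 CPM of these 16 markers in the same library, 6 of the 7 genes were lower in every knockout than in every wild type, the exception being Hhip. The differences were -0.66 for Gli3, -0.48 for Ptch1, -0.37 for Sufu, -0.32 for Smo, -0.25 for Gli1 and -0.24 for Gli2 on the log2 scale (two-sided exact permutation test, p = 0.1 for each, the smallest possible). The marker mean itself was 0.44 higher in knockouts and is shared by these values, so they are not separate results. Of all tested genes, 66.5% were lower in every knockout on this scale, so the count for the 7 genes is no result about them.

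The direction of this relative level depended on the cell type that served as reference. Against 9 tested osteoblast markers, Gli3 (-0.57) and Sufu (-0.28) lay below in every knockout, as did 25.2% of all tested genes, and the other members overlapped. Against 12 tested markers of fibroblasts and mural cells, whose mean was 0.17 lower in knockouts, Gli2 (0.36), Smo (0.29) and Sufu (0.23) lay above in every knockout, as did 34.3% of all tested genes, while Gli1, Ptch1 and Hhip were also positive with overlap, and Gli3 was at -0.06. Gli3 was the gene whose difference was negative against all 3 references. At -0.06 its genotypes overlapped (two-sided exact permutation test, p = 0.7). The share of all tested genes that were negative against all 3 was not computed. These osteoblast markers had a median log2 fold change of 0.22 (3 at an unadjusted p below 0.05) and the fibroblast and mural markers -0.29 (7), with 0 called in edgeR. The summed levels were 2324 to 2509 FPKM among knockouts against 2426 to 2807 for osteoblast markers, and 1367 to 1770 against 1738 to 2491 for fibroblast and mural markers. Sost and Mepe of the osteoblast list and Dpt of the fibroblast list had at most 3 counts in any library.

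**Figure D5:**
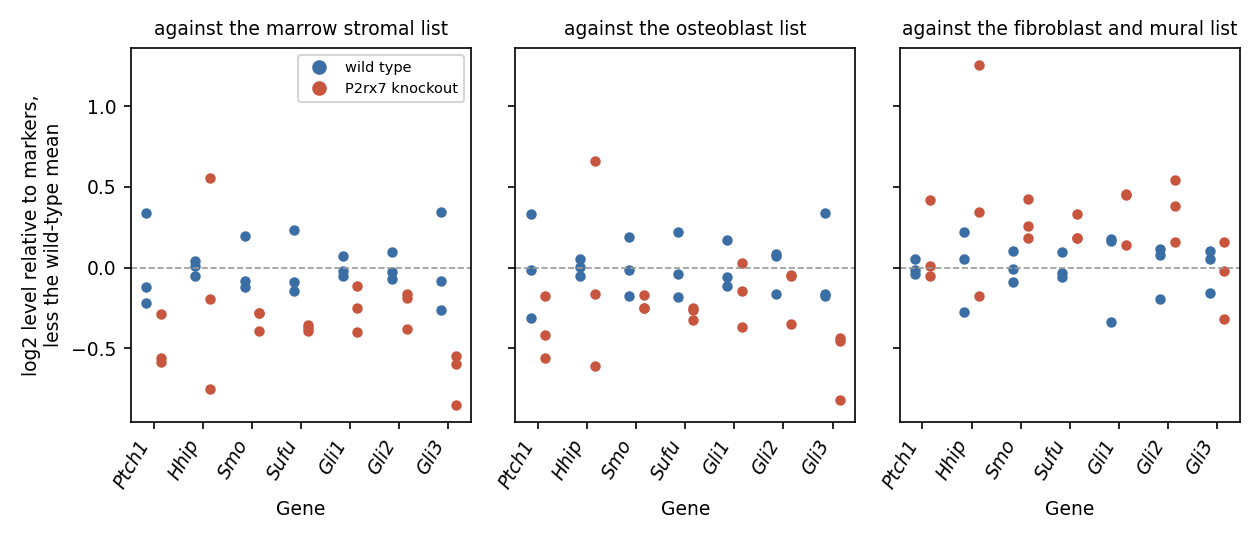
Log2 CPM of each of the 7 genes less the mean log2 CPM of a marker list in the same library, with the mean of the wild types set to 0, 1 point per library and 1 panel per marker list. The knockouts lie below the wild types for 6 genes against the stromal list, as in 66.5% of all tested genes, and above them for Gli2, Smo and Sufu against the fibroblast and mural list.

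The remaining marker lists gave no called gene in edgeR. Cartilage markers had 10 of 14 tested and a median log2 fold change of 0.02 (3 at an unadjusted p below 0.05), summed to 65.1 to 78.4 FPKM in knockouts and 81.8 to 94.1 in wild types, and Acan and Col9a1 had at most 3 counts. Adipocyte markers had a median of 0.81 over 9 tested (7 at an unadjusted p below 0.05) and sums of 448 to 533 against 242 to 383 FPKM. Endothelial markers had a median of 0.23 over 10 tested and skeletal muscle markers -0.17 over 4 (0 in each at an unadjusted p below 0.05), and blood cell markers had -0.01 over 13 tested (3). Their sums in knockouts against wild types were 17.4 to 34.0 against 16.996 to 34.6 FPKM for endothelium, 6.11 to 7.49 against 7.10 to 10.6 for muscle and 546 to 874 against 523 to 842 for blood cells. The genes of tissues outside the femur had 3 tested, Gh, Prl and Pomc, with a median of -3.07 (3) and sums over the list of 0.968 to 2.29 FPKM in knockouts against 5.56 to 6.70. The part of these cell types in the values of the 7 genes was not tested.

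The pattern of the 3 members that are Gli targets was set against 13199 other tested genes by the root mean square difference of centred log2 CPM over the 6 libraries. Nearest to Gli1 were Gpt, an alanine aminotransferase (0.0511), Zfp13 (0.0653) and Snai2, a transcription factor of mesenchymal cells (0.0655). Nearest to Ptch1 were Snx30 (0.0138), Cenpb (0.0160) and Ncoa3 (0.0199), and nearest to Hhip were Tnfsf13 (0.149), Cdk15 (0.169) and Tmod1 (0.169). The spread of the 3 members themselves was 0.237, 0.0759 and 0.420 on the same scale, so that a gene with no variation at all would lie that far away. The Gli binding motif GACCACCCA or its reverse complement TGGGTGGTC was in 0 of the 6 matched RefSeq promoter windows (Gli2, Gli3, Ptch1, Smo, Hhip and Sufu; Gli1 was not matched; GRCm38.p6, 250 bases before to 50 after the start), and in 0.253% of all 32851 windows. That says only that these letters are not in these windows.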

How the data were processed

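RNA-seq of 6 libraries was analysed, 3 per genotype; nothing in the labels pairs mice across genotypes. Per the labels, libraries were made from total RNA with a SMARTer mRNA kit. The authors deposited 1 table with raw counts and FPKM for each gene symbol and library. The submitters' processing notes name GRCm38 and mm10; aligner, counter, annotation and strand setting were not given in the sources used here. Deposited FPKM equalled count over length and over 1 effective size per library (tolerance 1e-06) in 100% of values above 0. Gene length is the deposited summed exon length.

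Counts were tested with edgeR 4.0.16 in R 4.3.3: filterByExpr (15478 genes kept), TMM scaling, glmQLFit with the legacy quasi-dispersion, two-sided glmQLFTest, Benjamini-Hochberg over all tested genes, threshold 0.05. The code was tested on simulated data. Fold changes are log2, knockout over wild type; intervals follow from the test. Alternatives used DESeq2 1.42.0 and limma 3.58.1, other scalings, filters and variance models, each library left out, and handling of libraries with Gh counts. P-values measure the spread between these mice.

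The 7 members, the 5 Hedgehog lists and the 9 marker lists were chosen with earlier results of these data known. In the lists, Adrbk1 and Talpid3 were matched to Grk2 and 2700049A03Rik by RefSeq synonyms. Named genes were all members, P2rx7, the ligands and, per list, those past the threshold or else those of highest FPKM; genes outside this rule are marked as chosen after their values were seen. Pattern likeness left out predicted genes, pseudogenes and antigen receptor segments. Some items of the lists are not reported here by name.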

Additional observations from a re-analysis of the deposited data

How the results depend on the processing

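None of the 7 genes passed the threshold in any of the 16 alternative settings (15 for Hhip, which the filter of 1 CPM in 3 libraries removed); the lowest adjusted p was 0.154, for Smo without WT 3. Gli2, Gli3, Smo and Sufu kept their direction in all of them, with log2 fold changes of 0.07 to 0.26, -0.29 to -0.14, 0.05 to 0.19 and 0.0052 to 0.13. An unadjusted p below 0.05 was reached by Gli3 in 5 settings, by Smo without WT 3 and by Hhip with the presence of Gh in the model (log2 fold change 1.02). With each library left out in turn, Gli1 ran from -0.0089 (without WT 2) to 0.28, Ptch1 from -0.11 to 0.015 (without knockout B) and Hhip from -0.0086 (without knockout A) to 0.71. Ptch1 also turned positive in the 4 libraries with Gh counts (0.10) and with the presence of Gh added to the model (0.10); both leave 1 knockout with Gh to compare. Of all tested genes 16 were called, against 496 by DESeq2, 970 with no filter, 10 and 2 by limma on log2(FPKM + 1) and log2(FPKM + 0.1), 0 in the 4 libraries (668 genes at an unadjusted p below 0.05), 0 with Gh in the model (894 such genes), and 0 to 172 with a library left out. Without knockout B or C the count was 0 (1468 and 1772 genes at an unadjusted p below 0.05), and without WT 3 it was 172. Of the Hedgehog lists 0 genes were called, against 4 by DESeq2, 6 with no filter, and 0 to 1 with a library left out, the 1 being Hsd11b2 without WT 2. The cause was not tested. With fibroblast and mural markers as the reference the relative levels reversed for Gli1 (0.35), Gli2 (0.36), Ptch1 (0.13), Smo (0.29), Hhip (0.47) and Sufu (0.23). The ratio of Gli2 to Gli3 kept its direction with each library left out (0.30 to 0.54 on the log2 scale). TMM-scaled CPM per kilobase gave levels within 1 SD of the deposited FPKM for all 7 genes. Depth limits Hhip and Gli1, at 9 to 26 and 24 to 37 counts per library. Legacy and newer quasi-dispersion estimates, the latter added after the data were seen, gave the 7 genes the same direction. No paired analysis was possible because numbers name wild types and letters name knockouts.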
